A study of Mus musculus with 10 samples.

Results

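The 10 genes described here encode the MHC class II antigen presentation machinery of the mouse: the class II chains H2-Aa, H2-Ab1 and H2-Eb1, the invariant chain Cd74, the transactivator Ciita, the peptide exchange factor chains H2-DMa, H2-DMb1 and H2-DMb2, and the H2-O chains H2-Ob and H2-Oa. They were chosen by name as the classical pathway from transactivator to peptide loading, all 10 were found among the 55453 genes of the count table, and all 10 passed a filter on low counts that left 14481 genes to be tested. RNA was sequenced from microglia sorted from the hippocampi of female 3xTg mice over 15 months of age. The 5 PBS libraries (titled 388_1 to 388_5) came from mice injected with the vehicle, phosphate-buffered saline, and the 5 GA libraries (394_1, 394_2, 400_1, 400_2 and 400_3) from mice given 0.1 mg of glatiramer acetate weekly for 8 weeks. Glatiramer acetate (GA) is a synthetic peptide drug of mixed sequence, first designed to resemble myelin basic protein and prescribed in multiple sclerosis.

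Both groups carried the same transgenes. The 3xTg line expresses mutated human transgenes, APP and MAPT among them, which the study's methods place under the Thy1.2 promoter, which is used to drive expression in neurons, and the animals were retired breeders. Injections were subcutaneous, with an additional one in the first week, and the PBS mice followed the same schedule. Cells were sorted as CD45int CD11b+, a gate meant to separate microglia from CD45high blood leukocytes. The labels give the same Percoll gradient for myelin removal in all 10 libraries, while the study's methods also name depletion beads. The sources used here do not say whether each library came from a separate animal, so the p-values measure the spread between these libraries. All PBS titles began with 388 and all GA titles with 394 or 400. The meaning of the prefixes is not stated, and prefix and treatment cannot be told apart.

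MHC class II molecules are pairs of an alpha and a beta chain that carry peptides from endosomes to the cell surface and show them to CD4+ T cells. In the endoplasmic reticulum new pairs are held by the invariant chain, which Cd74 encodes, and after its breakdown in endosomes H2-DM exchanges the remaining fragment for peptides while H2-O restrains H2-DM. Transcription of the chains depends on the coactivator CIITA, which binds no DNA itself and is recruited to factors on the X and Y boxes of class II promoters. Microglia in healthy brain hold little class II, and its induction has been used as a sign of activation in mouse models of amyloid deposition.

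Totals ran from 32332185 to 37708856 counts in the PBS libraries and from 33300102 to 38764643 in the GA libraries. Levels are given in CPM, the count of a gene for each 1000000 counts of its library, with TMM scaling to correct for differences in RNA composition. The microglial identity of the cells was checked on 9 marker genes, which together held 39669 to 48440 CPM in PBS and 40472 to 45771 CPM in GA libraries. P2ry12, whose protein was stained but was not part of the gate, had 6890 ± 316 CPM in PBS and 6319 ± 506 in GA (SD, n = 5 each), and of the genes behind the gate Ptprc, which encodes CD45, had 533 ± 43.6 and 549 ± 23.8 CPM. Itgam, which encodes CD11b, had 188 ± 57.4 CPM in PBS and 239 ± 46.9 CPM in GA, and was lowest in library 388_4, at 88.7 CPM.

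The question of the comparison was whether GA altered these genes in microglia. All 10 were expressed in every library, and none differed between the treatments beyond the spread of the libraries. H2-Aa, H2-Ab1, H2-Eb1, Cd74, Ciita, H2-DMa and H2-DMb1 had lower mean levels in GA, and H2-DMb2, H2-Ob and H2-Oa had higher ones. In edgeR's quasi-likelihood test with Benjamini-Hochberg adjustment over all 14481 genes, 0 of the 10 had an adjusted p under 0.05, as did 0% of all genes (0 of 14481), and their adjusted p-values ran from 0.895 to 0.971. At an unadjusted p under 0.05 the count was 0 of 10, where 5.75% of all genes (833) passed, and the lowest unadjusted p among the 10 was 0.143. The libraries of the 2 treatments overlapped for all 10 genes, and did not overlap for 0.891% of all genes tested. The median log2 fold change of the 10 (GA minus PBS) was -0.085, beside 0.00020 over all genes tested, of which 50.1% were higher in GA. Two-sided exact permutation tests of log2(CPM + 0.1) gave the 10 genes p-values from 0.119 to 0.865. DESeq2 with its defaults called 2 genes, Gm1070 and Dcstamp, neither of them among the 10, with 1245 genes at an unadjusted p under 0.05. It and limma-voom called 0 of the 10.

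**Figure D1:**
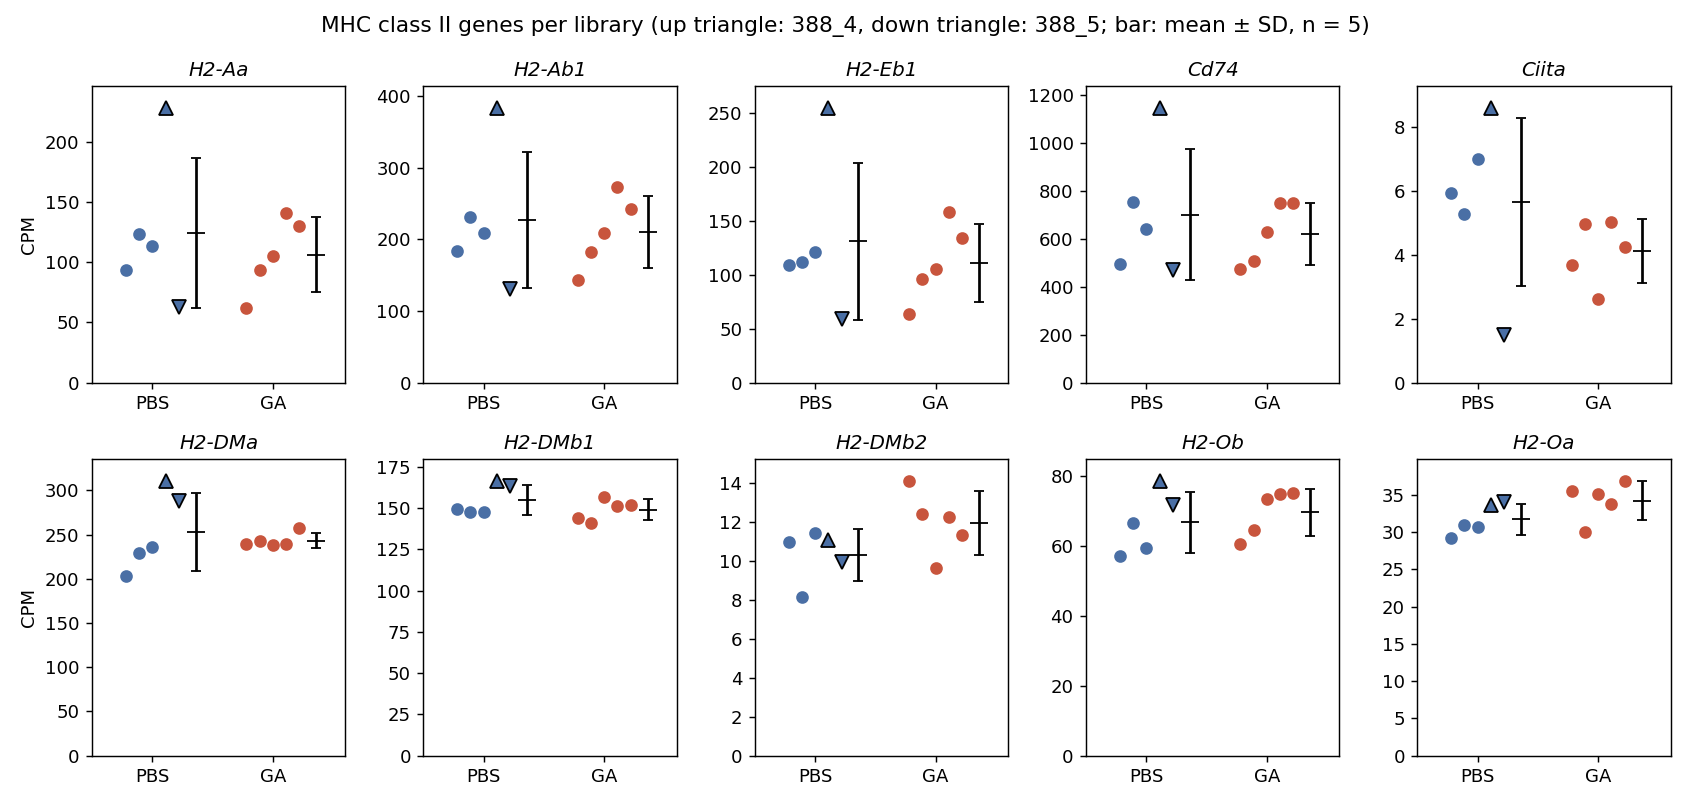
Level of each of the 10 genes in CPM (y axis, linear, from 0) in the 5 PBS libraries (blue) and the 5 GA libraries (red), each point a library in the order of its title, with the mean ± SD beside them. Library 388_4 (up triangle) is highest for every gene except H2-DMb2 and H2-Oa. Library 388_5 (down triangle) is at or near the lowest level of H2-Aa, H2-Ab1, H2-Eb1, Cd74 and Ciita. The points of the 2 treatments overlap in every panel.

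H2-Aa, the alpha chain of H2-A, was measured at 93.4, 123, 113, 228 and 62.5 CPM in PBS libraries 388_1 to 388_5 and at 61.7, 93.6, 105, 141 and 129.8 CPM in GA libraries 394_1, 394_2, 400_1, 400_2 and 400_3. The highest and the second lowest of the 10 values were both in the PBS group, and the GA values lay between them except that of 394_1, which was just below 388_5. The means were 124 ± 62.4 CPM in PBS and 106 ± 31.3 CPM in GA (SD, n = 5 each). The log2 fold change was -0.22 (SE 0.28, 95% interval -0.83 to 0.38) with an adjusted p of 0.951 in edgeR's quasi-likelihood test with Benjamini-Hochberg adjustment.

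H2-Ab1 encodes the beta chain that pairs with it. In the same library order its levels were 184, 230.5, 209, 383 and 130.4 CPM in PBS and 144, 183, 208, 273 and 242 CPM in GA. Every GA value fell inside the range that 388_5 and 388_4 spanned. The means were 227 ± 94.6 and 210 ± 50.3 CPM (SD, n = 5 each), and the log2 fold change was -0.11 (SE 0.23, 95% interval -0.61 to 0.38), with an adjusted p of 0.971 in the same edgeR test.

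H2-Eb1, the beta chain of H2-E, had 108.5, 111, 121, 254 and 59.1 CPM in PBS and 63.7, 95.5, 105, 158 and 134 CPM in GA. Library 388_4 was well above every other library, 3 PBS libraries lay close together, and 388_5 was the lowest of the 10. The means were 131 ± 72.9 and 111 ± 36.02 CPM (SD, n = 5 each), and the log2 fold change was -0.23 (SE 0.31, 95% interval -0.90 to 0.43), with an adjusted p of 0.951 in the same edgeR test. The alpha chain partner of H2-E is listed in the table as the pseudogene H2-Ea-ps, which had 0 counts in all 10 libraries, which allows up to 3 counts in each. The beta chain gene H2-Eb2 had 0 counts in the 5 PBS libraries and 1, 2, 2, 0 and 4 counts in the GA libraries, too few for a comparison. Such a limit covers only the error of counting, because the amplified reads carry no molecular identifiers and several may stem from 1 molecule.

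Cd74, which encodes the invariant chain and is also a surface receptor for the cytokine MIF, was the most abundant of the 10. Its levels were 495, 755, 639.6, 1143 and 471 CPM in PBS and 472, 509, 629.9, 747 and 749 CPM in GA. The GA libraries again fell inside the PBS range, with 388_5 and 394_1 nearly level at the bottom. The means were 701 ± 273 and 621 ± 129.5 CPM (SD, n = 5 each), and the log2 fold change was -0.17 (SE 0.21, 95% interval -0.63 to 0.28), with an adjusted p of 0.950 in the same edgeR test.

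Summed over these 4 genes, here called the core class II genes, the level was 881, 1219.9, 1083, 2007 and 723 CPM in PBS libraries 388_1 to 388_5. In the GA libraries the sum was 741, 880.5, 1048, 1318 and 1255 CPM, in the order given above. The sum was 0.0723% to 0.201% of the TMM-scaled total, and the lowest and the highest sum were both in PBS libraries. The group means were 1183 ± 498 CPM in PBS and 1049 ± 244 CPM in GA (SD, n = 5 each), a difference of -134 CPM against a pooled SD of 392 CPM. In sorted bulk RNA, fewer cells with class II and less class II RNA per cell cannot be told apart.

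The direction of the core genes rested on library 388_4. Without it, the PBS means (n = 4) were 98.1 ± 26.8 CPM for H2-Aa, 188 ± 43.1 for H2-Ab1, 100.1 ± 27.8 for H2-Eb1 and 590.2 ± 132 for Cd74. The difference in the core sum became 71.9 CPM, with GA above PBS, and without 388_5 it was -249 CPM. The log2 fold changes without 388_4 were 0.12 for H2-Aa, 0.16 for H2-Ab1, 0.15 for H2-Eb1 and 0.075 for Cd74, each with an adjusted p of 0.998 in edgeR's quasi-likelihood test with Benjamini-Hochberg adjustment.

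**Figure D2:**
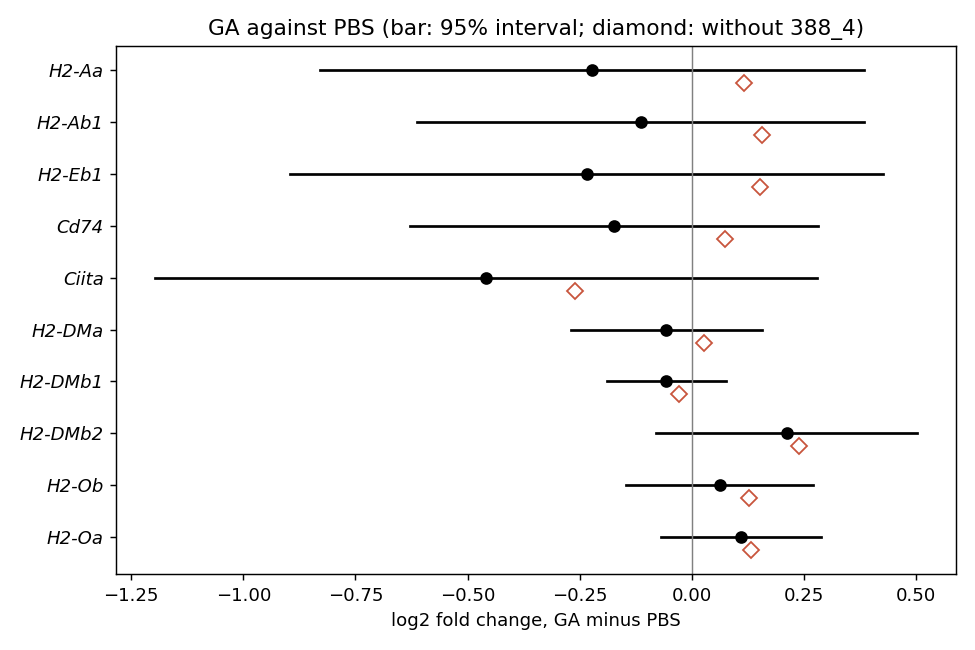
Log2 fold change of each gene, GA minus PBS (x axis), from edgeR with its 95% interval (black circle and bar, all 10 libraries) and without PBS library 388_4 (red open diamond). Every interval crosses 0, and the diamonds of H2-Aa, H2-Ab1, H2-Eb1, Cd74 and H2-DMa lie to the right of 0 while their circles lie to the left.

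The 4 core genes varied together from library to library. Over the 10 libraries, which are of like depth and have the same protocol in their labels, Pearson's r of log2 CPM between pairs of core genes ran from 0.909 (H2-Eb1 with Cd74) to 0.993 (H2-Aa with H2-Ab1), with a median of 0.970 over 6 pairs, and Spearman's rho ran from 0.879 to 0.976. With 388_4 and 388_5 left out, the libraries farthest from the median, the 6 values of r ran from 0.781 to 0.984, and after removal of the group means from 0.907 to 0.996. The ratio of H2-Ab1 to H2-Aa accordingly stayed between 1.68 (388_4) and 2.33 (394_1), although each gene alone spanned a 2.94-fold and a 3.69-fold range. Correlations of the core genes with the peptide loading genes were lower. Over the 20 pairs of a core gene with an H2-DM or H2-O gene, r ran from -0.241 (Cd74 with H2-DMb2) to 0.647 (Cd74 with H2-Ob), with a median of 0.294. Without 388_4 and 388_5 it ran from -0.537 to 0.721, with a median of 0.279. These genes differed: H2-Ob had 0.467 to 0.647 with the core genes, and 0.536 to 0.721 without 388_4 and 388_5. H2-DMb2 had -0.241 to -0.057, and -0.537 to -0.322. Among the 10 pairs of H2-DM and H2-O genes r ran from -0.363 to 0.721, with a median of 0.450, and without the 2 libraries from -0.445 to 0.694, with a median of 0.341. These values describe 10 libraries and were not tested.

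**Figure D3:**
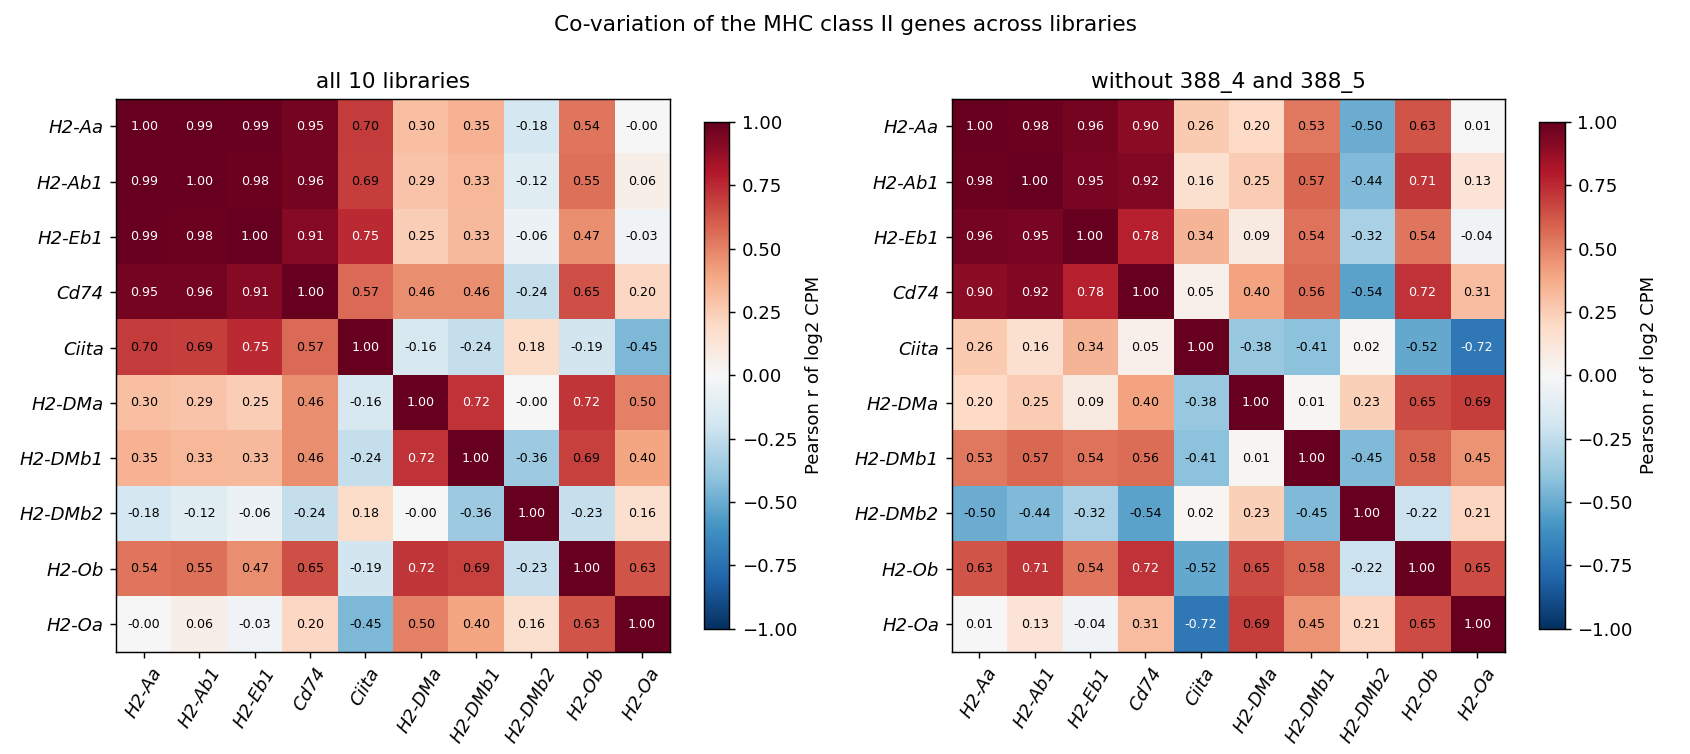
Pearson's r of log2 CPM for each pair of the 10 genes (color from -1 to 1, value in each cell) over all 10 libraries (left) and without 388_4 and 388_5 (right). The core genes form a block of high values in both panels (lowest 0.909 left and 0.781 right), and the values of Ciita with them range from 0.566 to 0.747 on the left and from 0.0526 to 0.341 on the right.

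The promoters of these genes are shown because class II genes are known for shared promoter elements. The RefSeq promoter table of GRCm38.p6 held 8 promoters for 7 of the 10 genes (2 of them for H2-DMa), each from 250 bases before to 50 bases after a start site. The letters GATTGG (the Y box core, a CCAAT box read on the other strand) and GCAAC (here the X box core) were searched. On either strand GATTGG occurred in 16.1% of the 32851 promoters in the table and GCAAC in 35.2%. Both on the coding strand, with GCAAC 15 to 45 bases ahead of GATTGG, occurred in 0.265% (87). H2-Aa, H2-Eb1, H2-Ob and H2-Oa held this pair, with 32, 31, 29 and 32 bases from the start of one to the start of the other. H2-DMb1 and H2-DMb2 held GATTGG without GCAAC, within the same 100 bases. The search took exact letters only, so variants of the X box were not counted. These promoters are therefore not shown to lack an X box. Of the promoters of H2-DMa, one held GATTGG at positions -199 to -194 and the other GCAAC on the opposite strand. The windows below span positions -130 to -31 from the RefSeq start site, 5' to 3' on the coding strand, with both cores in capitals:
H2-Aa, chr17:34287854-34287953, minus strand: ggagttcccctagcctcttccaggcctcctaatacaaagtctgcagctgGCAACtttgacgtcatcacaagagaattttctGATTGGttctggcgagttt
H2-Eb1, chr17:34305737-34305836, plus strand: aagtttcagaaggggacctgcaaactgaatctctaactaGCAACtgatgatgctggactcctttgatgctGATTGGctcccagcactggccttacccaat
H2-Ob, chr17:34238775-34238874, plus strand: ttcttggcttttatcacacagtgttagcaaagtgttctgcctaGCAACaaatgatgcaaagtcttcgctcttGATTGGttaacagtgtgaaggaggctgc
H2-Oa, chr17:34092249-34092348, plus strand: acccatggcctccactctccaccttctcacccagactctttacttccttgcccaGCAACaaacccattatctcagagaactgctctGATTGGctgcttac
H2-DMb1, chr17:34153061-34153160, plus strand: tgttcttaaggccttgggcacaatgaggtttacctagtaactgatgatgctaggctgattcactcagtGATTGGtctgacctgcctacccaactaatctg
H2-DMb2, chr17:34145119-34145218, plus strand: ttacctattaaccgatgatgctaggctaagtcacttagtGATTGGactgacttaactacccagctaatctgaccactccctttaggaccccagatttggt

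Of these promoters, those of H2-Aa and H2-Eb1 belong to genes that varied together (r = 0.985). H2-Ob, whose promoter holds the same pair of cores, had r = 0.536 with H2-Aa and 0.467 with H2-Eb1, and H2-Oa had -0.0031 and -0.034. In the GENCODE M21 annotation the starts of H2-Oa, H2-DMb1 and H2-DMb2 lie upstream of the RefSeq starts. The windows of H2-Oa and H2-DMb1 reach past the annotated start, and that of H2-DMb2 lies wholly inside the annotated gene, which starts at 34143307. A match of letters is a description of the sequence and was not tied to the levels by any test.

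Ciita, the transactivator, was the least abundant of the 10, with 53 to 277 counts per library. Its levels were 5.94, 5.29, 6.99, 8.58 and 1.502 CPM in PBS libraries 388_1 to 388_5 and 3.69, 4.97, 2.63, 5.03 and 4.24 CPM in GA libraries 394_1, 394_2, 400_1, 400_2 and 400_3. Of the PBS libraries 4 lay above every GA library, and the fifth, 388_5, was the lowest of all 10. The means were 5.66 ± 2.64 and 4.11 ± 0.998 CPM (SD, n = 5 each), and the log2 fold change was -0.46 (SE 0.34, 95% interval -1.20 to 0.28), the largest in size of the 10, with an adjusted p of 0.910 in edgeR's quasi-likelihood test with Benjamini-Hochberg adjustment. The exact permutation test of log2(CPM + 0.1), two-sided, gave p = 0.556, where the smallest p that 5 against 5 libraries allow is 0.00794. With 1 library left out the log2 fold change ran from -0.70 (without 388_5, adjusted p = 0.561 in edgeR's quasi-likelihood test) to -0.26 (without 388_4, adjusted p = 0.998). Its exons share 329 bases with Dexi on the opposite strand (0.324% of its 100-base transcript windows), and reads from there cannot be assigned without strand.

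Ciita followed the core genes in the outermost libraries. It was highest in 388_4 and lowest in 388_5, as H2-Ab1, H2-Eb1 and Cd74 were. H2-DMa, H2-DMb1 and H2-Ob were also highest in 388_4, but not lowest in 388_5. The r of Ciita with the core genes ran from 0.566 (Cd74) to 0.747 (H2-Eb1). Without those 2 libraries the 4 values fell to between 0.053 and 0.341. With H2-Oa its r was -0.453 over the 10 libraries and -0.716 without those 2.

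H2-DMa, the alpha chain of the peptide exchange factor H2-DM, had 203, 229, 235, 310.1 and 288 CPM in PBS and 239, 243, 238, 239 and 257 CPM in GA. The GA libraries lay within a narrow band, and the PBS libraries reached below it and above it. The SD of log2 CPM was 0.251 in PBS and 0.046 in GA, a difference that was not tested. The means were 253 ± 44.3 and 243 ± 7.93 CPM (SD, n = 5 each), with a log2 fold change of -0.057 (SE 0.099, 95% interval -0.27 to 0.16) and an adjusted p of 0.966 in the same edgeR test. Without 388_4 the PBS mean was 239 ± 35.5 CPM (n = 4) and the log2 fold change 0.027. Its exons share 360 bases with Brd2 on the opposite strand, and 6.58% of its 100-base transcript windows occur in Brd2, so the library kit, which does not mark strand, leaves reads from there unresolved.

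H2-DMb1, the beta chain that pairs with it, was the steadiest of the 10, at 149, 148, 147, 166 and 163 CPM in PBS and 144, 141, 156, 151 and 152 CPM in GA. Both libraries titled 394 were below every PBS library, and the 3 titled 400 were inside the PBS range. The means were 155 ± 9.19 and 149 ± 6.37 CPM (SD, n = 5 each), with a log2 fold change of -0.056 (SE 0.062, 95% interval -0.19 to 0.076) and an adjusted p of 0.945 in the same edgeR test.

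H2-DMb2, the neighboring beta chain gene, was far less abundant, at 10.99, 8.13, 11.4, 11.1 and 9.95 CPM in PBS and 14.1, 12.4, 9.65, 12.3 and 11.3 CPM in GA. In GA, 3 libraries (394_1, 394_2 and 400_2) were above every PBS library. The means were 10.3 ± 1.34 and 11.9 ± 1.63 CPM (SD, n = 5 each), with a log2 fold change of 0.21 (SE 0.14, 95% interval -0.080 to 0.50) and an adjusted p of 0.895 in the same edgeR test, and the exact permutation test gave p = 0.159. With 1 library left out the log2 fold change ran from 0.14 (without 388_2) to 0.28 (without 400_1). The ratio of H2-DMb1 to H2-DMb2 was 15.2 ± 2.13 in PBS and 12.7 ± 2.29 in GA (SD, n = 5 each). These genes are close copies: 11.3% of the 100-base windows in H2-DMb1 transcripts occur in H2-DMb2 and 10.3% of those of H2-DMb2 in H2-DMb1, and how the counting treated reads that match both is not given in the sources used here, so the H2-DMb2 level is uncertain.

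H2-Ob, the beta chain of H2-O, had 57.2, 66.8, 59.6, 78.6 and 71.9 CPM in PBS and 60.5, 64.7, 73.4, 75.0 and 75.2 CPM in GA. All GA values lay within the PBS range. The means were 66.8 ± 8.79 and 69.8 ± 6.73 CPM (SD, n = 5 each), with a log2 fold change of 0.063 (SE 0.097, 95% interval -0.15 to 0.27) and an adjusted p of 0.957 in the same edgeR test. With 1 library left out it ran from 0.012 (without 388_1) to 0.13 (without 388_4).

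H2-Oa, its alpha chain, had 29.2, 30.96, 30.7, 33.6 and 34.1 CPM in PBS and 35.5, 30.0, 35.1, 33.8 and 36.8 CPM in GA. In GA, 3 libraries (394_1, 400_1 and 400_3) exceeded every PBS library, and 394_2 lay near the bottom of the PBS range. The means were 31.7 ± 2.08 and 34.2 ± 2.61 CPM (SD, n = 5 each), with a log2 fold change of 0.11 (SE 0.083, 95% interval -0.068 to 0.29) and an adjusted p of 0.910 in the same edgeR test. The exact permutation test gave p = 0.119, the lowest of the 10 genes. Of its exon bases 321 are shared with the antisense transcript BC051537, and reads from there cannot be assigned without strand.

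Among the H2-DM and H2-O genes, H2-Ob and H2-Oa, the chains of a single dimer, had r = 0.632 over the 10 libraries, 0.651 without 388_4 and 388_5 and 0.620 after removal of the group means. H2-DMa and H2-DMb1, also partners in a dimer, had r = 0.721, 0.0084 and 0.735 in the same order. H2-Ob followed both of these H2-DM genes: r was 0.716, 0.650 and 0.766 with H2-DMa, and 0.686, 0.584 and 0.855 with H2-DMb1. H2-DMb1 and H2-DMb2 had r = -0.363, -0.445 and -0.211. Relative to Cd74, H2-DMa ran from 0.271 in 388_4 to 0.611 in 388_5, the libraries with the highest and the lowest Cd74, the denominator of the ratio.

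The core genes and Ciita differed more between libraries of one treatment than the peptide loading genes did. The SD of log2 CPM within treatments was 0.583 for H2-Aa, 0.473 for H2-Ab1, 0.636 for H2-Eb1, 0.426 for Cd74 and 0.748 for Ciita. It was 0.180 for H2-DMa, 0.0743 for H2-DMb1, 0.201 for H2-DMb2, 0.168 for H2-Ob and 0.105 for H2-Oa, and the median over all genes tested was 0.220. Since low counts vary more, each gene was also ranked among the 500 genes nearest to it in mean level: the 4 core genes exceeded 99.6% to 99.8% of them, Ciita 95.6%, H2-DMa 84.8% and H2-Ob 69.8%. H2-DMb2 exceeded 27.6%, H2-DMb1 11% and H2-Oa 10.4% of genes of like level. From the lowest to the highest library, Ciita spanned a 5.71-fold range, H2-Eb1 4.29-fold, Cd74 2.43-fold and H2-DMb1 1.18-fold.

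**Figure D4:**
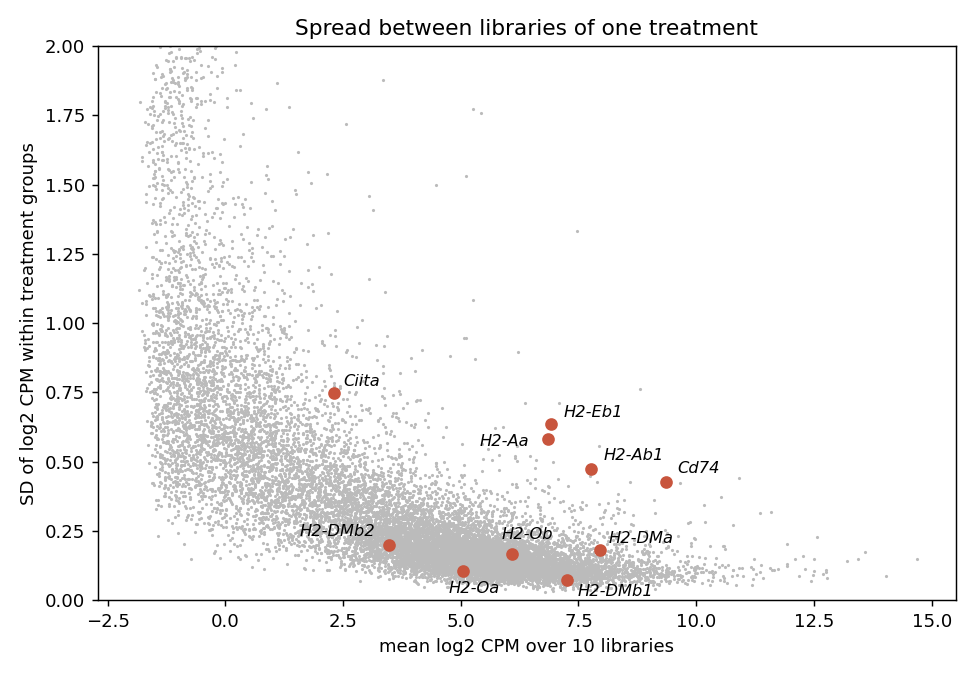
SD of log2 CPM within treatments (y axis, cut at 2, with 204 genes above it) against mean log2 CPM (x axis) for the 14481 genes tested (grey) and the 10 class II genes (red). H2-Aa, H2-Ab1, H2-Eb1 and Cd74 stand above nearly all genes of like level, while H2-DMb1 and H2-Oa lie near the lower edge.

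Within the GA group, the libraries titled 400 had more core class II RNA than those titled 394. Mean levels in the 2 libraries titled 394 and the 3 titled 400 were 77.6 and 125 CPM for H2-Aa, 163 and 241 CPM for H2-Ab1, 79.6 and 132 CPM for H2-Eb1, 490.5 and 709 CPM for Cd74, and 62.6 and 74.5 CPM for H2-Ob. The means of the 400 libraries were close to those of the PBS libraries for the core genes (124, 227, 131 and 701 CPM). The prefixes did not overlap for 7 of the 10 genes (H2-Aa, H2-Ab1, H2-Eb1, Cd74, H2-DMb1, H2-DMb2 and H2-Ob), where 27.7% of all genes tested did not overlap, and H2-DMb2 was the one of them with the higher level in 394. In edgeR's quasi-likelihood test of 400 against 394 with Benjamini-Hochberg adjustment, 0 of the 10 had an adjusted p under 0.05, where 2 genes did (0.0138% of all tested), and 0 of the 10 had an unadjusted p under 0.05, where 5.48% did. Log2 fold changes, 400 minus 394, were 0.69 for H2-Aa (SE 0.39), 0.56 for H2-Ab1 (SE 0.32), 0.73 for H2-Eb1 (SE 0.43), 0.53 for Cd74 (SE 0.29) and 0.25 for H2-Ob (SE 0.13). DESeq2 called 73 genes for the prefixes, none of them among the 10.

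Per kilobase of merged exons, a scale on which levels of different genes can be compared, Cd74 had a median of 378 CPM per kb over the 10 libraries. H2-DMb1 followed at 89.4, H2-Ab1 at 81.2, H2-DMa at 69.4, H2-Eb1 at 56.6 and H2-Aa at 28.7 CPM per kb. H2-Oa (23.9), H2-Ob (12.9), H2-DMb2 (6.41) and Ciita (0.524) came below. The ranges of neighbors in this order overlapped from H2-DMb1 to H2-Oa, with H2-Ab1 alone running from 50.8 to 149 CPM per kb. They did not overlap between Cd74 and H2-DMb1 or in the last 3 steps, from H2-Oa down to Ciita. The merged exon length counts bases of all annotated isoforms, which lowers the level of a gene with long alternative exons, such as H2-Ob (5380 bases) and H2-Aa (3798 bases).

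In the GENCODE M21 annotation of GRCm38, the 8 H2 genes lie on chromosome 17 between positions 34092340 (start of H2-Oa) and 34316674 (end of H2-Eb1). H2-Aa is at 34282744-34287823 on the minus strand, beside H2-Eb1 at 34305867-34316674 and H2-Ab1 at 34257689-34269419 on the plus strand. H2-DMb2 (34143307-34151555) and H2-DMb1 (34153072-34160230) adjoin each other on the plus strand. Ciita is on chromosome 16 at 10480059-10528418 and Cd74 on chromosome 18 at 60803848-60812652, both on the plus strand. All 10 are annotated as protein-coding genes.

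Of the other genes of the pathway, 31 were listed by role, 30 were in the table and 26 passed the filter: 18 had higher and 8 lower mean levels in GA, 0 had an adjusted or an unadjusted p under 0.05 in edgeR's quasi-likelihood test, and their median log2 fold change was 0.053. Over all 14481 genes tested, 0% and 5.75% had such p-values, 50.1% were higher in GA and the median was 0.00020. Of the 7 genes for factors on class II promoters (Rfx5, Rfxap, Rfxank, Nfya, Nfyb, Nfyc and Creb1), 5 were higher and 2 lower, with a median of 0.048. Rfx5, a DNA-binding subunit of the X box factor RFX, had the smallest p of them, at 21.4 ± 1.64 CPM in PBS and 23.7 ± 2.73 CPM in GA (log2 fold change 0.14, SE 0.10, adjusted p = 0.899 by edgeR). Interferon-gamma is the main known inducer of Ciita. Its gene Ifng had 0 counts in the PBS libraries and at most 1 count in a GA library. Of the 6 genes of its receptor and signaling that passed, 3 were higher and 3 lower.

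Endosomal proteases and regulators of class II turnover ranged widely in level, from Ifi30, a thiol reductase, at 45.9 ± 8.34 CPM in PBS and 44.1 ± 5.08 CPM in GA, to Ctsd, an aspartic protease, at 10871 ± 1456 and 11409 ± 668 CPM (SD, n = 5 each). Ctss, the cathepsin that cleaves the invariant chain in antigen-presenting cells, had 9381 ± 1226 CPM in PBS and 9348 ± 499 CPM in GA (SD, n = 5 each), and its log2 fold change was -0.0051 (SE 0.079). Of the 9 genes of this kind, 6 were higher and 3 lower in GA, with a median of 0.059. Lgmn, the asparagine-specific endopeptidase legumain, had the smallest p, at 3736 ± 437 CPM in PBS and 4103 ± 183 CPM in GA (log2 fold change 0.14, SE 0.075, adjusted p = 0.895 by edgeR). March1, a ubiquitin ligase for class II molecules, had 230.2 ± 28.4 and 227 ± 40.4 CPM. Of the genes listed for Cd74 as a receptor for MIF, ligands included, 4 passed. All had higher means in GA, where 50.1% of all genes tested were higher, and their log2 fold changes ran from 0.032 to 0.35. Cd44, a signaling partner of Cd74, had 4.35 ± 2.13 CPM in PBS and 5.56 ± 1.71 CPM in GA (log2 fold change 0.35, SE 0.33, adjusted p = 0.937 by edgeR).

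Other cells of the brain and blood also express class II, and markers of these were measured beside the core genes. Of 7 markers of border-associated macrophages (Mrc1, Cd163, Lyve1, F13a1, Pf4, Cbr2 and Ms4a7), all were detected in every library. Their summed level was 91.8, 49.5, 150.3, 255.5 and 53.6 CPM in PBS libraries 388_1 to 388_5 and 49.1, 88.6, 94.9, 195 and 95.8 CPM in the GA libraries. It was highest in 388_4 and low in 388_5 and 394_1, as the core genes were, whereas 388_2 had a low macrophage sum and a core sum above the mean. Over the 10 libraries the r of this sum with the core class II score (the mean of the 4 standardized log2 levels) was 0.795 and the rho 0.770, and r was 0.577 without 388_4 and 388_5. Taken singly, the 7 markers had r from 0.612 (Lyve1) to 0.817 (Pf4) with the core score over the 10 libraries. The CD45int gate is meant to leave out CD45high cells, which most border-associated macrophages are, but how many passed it was not measured. The part of these cells in the core class II levels was not tested.

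**Figure D5:**
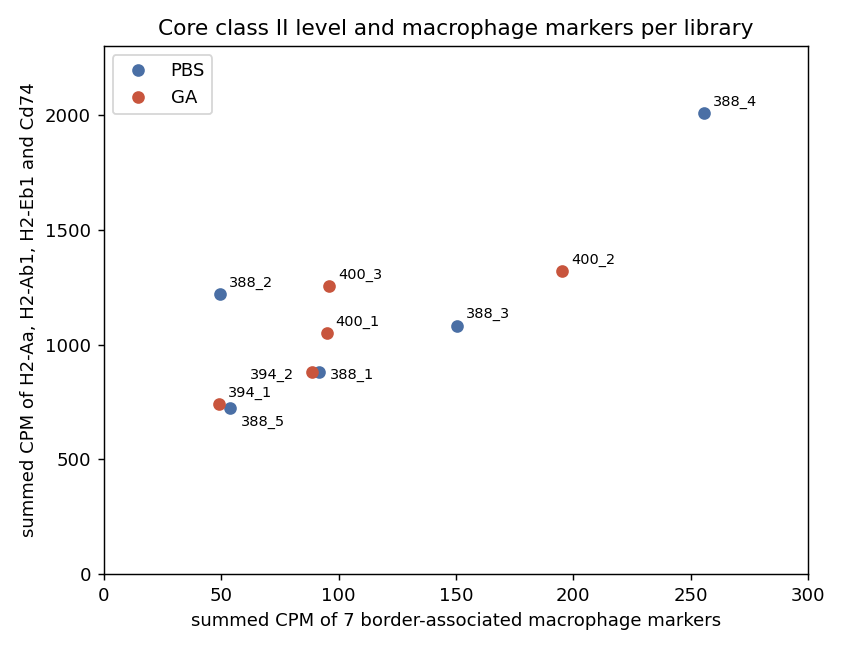
Summed CPM of H2-Aa, H2-Ab1, H2-Eb1 and Cd74 (y axis) against summed CPM of 7 border-associated macrophage markers (x axis), each point a library named by its title (PBS blue, GA red). Library 388_4 is highest on both axes (255.5 and 2007 CPM), and 388_5 and 394_1 are at the lower left.

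Markers of 5 other cell types were summed in the same way. The CD11b+ gate would leave out B and T cells, and the CD45int gate is meant to leave out CD45high cells, among them monocytes, neutrophils and most dendritic cells. Markers of dendritic cells (8 genes) summed to 46.2 to 66.6 CPM in PBS and 47.3 to 67.3 CPM in GA, with r = 0.522 with the core score and -0.035 without the 2 libraries. Of these 8 genes, Flt3, Zbtb46, Xcr1, Cd209a, Batf3 and Itgae were at 0 in no library, Ccr7 was at 0 in 5 and Clec9a in 9. Those of B cells (7 genes) summed to 567 to 672 CPM in PBS and 541 to 675 CPM in GA (r = -0.061), nearly all of it Ighm, while Pax5, a transcription factor that defines the lineage, did not exceed 0.124 CPM. Those of T cells (7 genes) summed to 0.0896 to 1.67 CPM in PBS and 0.315 to 1.44 CPM in GA. Those of monocytes (6 genes) summed to 28.5 to 85.5 CPM in PBS, highest in 388_4, and to 31.2 to 44.1 CPM in GA (r = 0.384, and -0.045 without the 2 libraries). Of these 6, Ccr2 had r = 0.730 and Chil3 r = 0.015 with the core score. Markers of neutrophils (6 genes) ran from 33.7 to 413 CPM in PBS, highest in 388_3, and from 8.52 to 154 CPM in GA (r = -0.022). The sum of the 9 microglial markers had r = -0.675 with the core score, and -0.185 without the 2 libraries.

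The genes most like the core genes in pattern, by Pearson's r of log2 CPM with the core score over the 10 libraries, were Gm32591 (0.941), Nbas (0.926), Tab2 (0.917), Klra2 (0.909) and Lsm10 (0.909). Each was highest in 388_4 and lowest in 394_1 or 388_5. Without 388_4 and 388_5 their r ran from 0.747 (Lsm10) to 0.877 (Gm32591). Klra2 had only 0.283 to 1.39 CPM. They were picked as the highest of 14481 genes, and their values are a description.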

How the data were processed

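The authors sorted hippocampal microglia, amplified the RNA with the SMARTer Ultra Low Input kit, made NexteraXT libraries, which do not mark strand, and sequenced single-end reads. Per the submitters' processing notes, bcl2fastq 2.19.0, fastp 0.20.0, STAR 2.7.0f, Subread 1.6.4 with featureCounts, DESeq2 and the build GRCm38.p6 were used. The annotation release, strand setting and handling of multiply matching reads are not given in the sources used here. The authors deposited whole-number read counts that had not been normalized, 1 row for each of 55453 genes, and 0 columns lacked a sample.

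Groups were taken from the sample labels. The 10 genes and the gene lists were chosen with earlier results of these data known. Counts were filtered with filterByExpr (minimum count 10), scaled by TMM and fitted with edgeR 4.0.16 in R 4.3.3 (quasi-likelihood F-test, GA against PBS, no covariate, common dispersion 0.0464), with Benjamini-Hochberg adjustment over 14481 genes and a threshold of 0.05. Scripts were tested on simulated data. Single genes were also compared by two-sided exact permutation tests of log2(CPM + 0.1). Alternatives were DESeq2 1.42.0, limma-voom (limma 3.58.1), DESeq2 size factors, no filter, 10 counts in every library, a robust fit, each library left out in turn, GA libraries of either title prefix alone, pseudocounts of 0.01 and 1 CPM, and a prior count of 2 for the spread. The named genes outside the 10 were the gene with the smallest p of each pathway list (that of the interferon-gamma list is not reported here), the 5 genes most like the core score, the sort genes and the markers. Ctss, Ctsd, Ifi30, March1, Ifng, H2-Eb2, H2-Ea-ps, Gm1070 and Dcstamp were named after their values were seen. Gene positions came from GENCODE M21 and promoters from RefSeq, and no promoter of H2-Ab1, Cd74 or Ciita was used here. Figures were drawn with Python 3.11.15, numpy 2.4.6 and matplotlib 3.10.9.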

Additional observations from a re-analysis of the deposited data

Results flagged for a closer look

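H2-DMa in GA library 400_3 stood apart from the other GA libraries: it had 257 CPM, the nearest GA library had 243 CPM, and the gap took 0.76 of the range of the group, above Dixon's critical value of 0.71 for 5 samples. The 5 GA values lay close together, and 257 CPM was within the PBS range of 203 to 310.1 CPM. Chance flags about 1 in 20 groups, and 22 groups were looked at.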

How the results depend on the processing

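No alternative put any of the 10 genes past the threshold. Of 180 values (10 genes under 18 alternatives each), 170 kept their direction and 10 reversed, and the lowest adjusted p was 0.561 (edgeR, DESeq2 or limma-voom with Benjamini-Hochberg adjustment). Over all genes, DESeq2 with its defaults called 2, against 0 in edgeR, and leaving out 1 library gave 0 to 1 calls (Gm15920, without 394_1). The reversals came from leaving out 388_4 and from splitting the GA libraries, and their cause was not tested. With 1 library left out the log2 fold change ran from -0.39 to 0.12 for H2-Aa, -0.25 to 0.16 for H2-Ab1, -0.41 to 0.15 for H2-Eb1, -0.28 to 0.075 for Cd74 and -0.13 to 0.027 for H2-DMa, positive only without 388_4. For the others it ran from -0.70 to -0.26 for Ciita, -0.073 to -0.030 for H2-DMb1, 0.14 to 0.28 for H2-DMb2, 0.012 to 0.13 for H2-Ob and 0.082 to 0.16 for H2-Oa. With only the GA libraries titled 400 it was 0.022 for H2-Aa, 0.093 for H2-Ab1, 0.021 for H2-Eb1 and 0.023 for Cd74, and with only those titled 394 it was -0.087 for H2-Ob. The permutation p-values ran from 0.119 to 0.865 with pseudocounts of 0.01 and of 1 CPM. The median SD of log2 CPM of the 10 genes was 0.314. No paired analysis was possible because the replicate numbers only number the libraries, and the labels name no shared animal, litter or day. The 5 libraries of each group set the precision, and only H2-DMb1, H2-Ob, H2-Oa and H2-DMa had 95% intervals within 0.3 of 0 on the log2 scale.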
